A study of Mus musculus with 6 samples.

Results

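DNA methylation was described at 7 genes that act in blood stem and progenitor cells: Flt3, Kit, Gata2, Runx1, Meis1, Cebpa and Gfi1. The members were all listed cytosines inside a fixed mm9 window around each gene, a rule that uses no measured value. They numbered 808 of the 652716 cytosines of the deposited table. The windows were chr5:148130000-148225000 for Flt3, chr5:75955000-76060000 for Kit, chr6:88130000-88170000 for Gata2, chr16:92590000-92840000 for Runx1, chr11:18770000-18935000 for Meis1, chr7:35895000-35950000 for Cebpa and chr5:108135000-108165000 for Gfi1.

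The samples were C57BL/6J mouse bone marrow, all labelled male, with no age given in the labels. The day 0 group (replicates 2 and 3) was marrow before culture. The day 4 group (replicates 1 and 2), labelled common myeloid progenitor, and the day 7 group (replicates 1 and 4), labelled BMDC (bone marrow derived dendritic cells), had grown in medium holding Flt3L, the ligand of the Flt3 receptor, from the supernatant of a transfected SP2/0 line. DNA of the cultured groups was taken from all live cells, so each value is an average over the mixture, and methylation alone could not check the labelled cell types.

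Flt3 and Kit are receptor tyrosine kinases on the surface of early progenitors: Flt3 binds Flt3L and is needed for the growth of dendritic cells, and Kit binds stem cell factor. Gata2, Runx1 and Meis1 are transcription factors of blood stem cells, while Cebpa and Gfi1 act as progenitors commit to granulocytes and monocytes. Cytosines followed by guanine (CG sites) are methylated over most of the mouse genome, whereas dense clusters of them at promoters usually carry little methylation. Reduced representation bisulfite sequencing reads the CG sites near the cut sites of MspI and TaqI, so it covers such clusters well and the rest of a gene sparsely.

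Promoter sequences are shown for 4 genes to let the measured cytosines be seen in their sequence; they come from RefSeq (GRCm38.p6). Each promoter was set on mm9 by the spacing of its CG sites against the positions of listed cytosines. Gata2, Runx1 and Gfi1 were placed by 10, 16 and 9 cytosines, against a minimum of 8. Flt3, Meis1 and Cebpa were placed by 5, 4 and 5 cytosines within their windows, a minimum of 4 that was chosen after the data were seen; Kit was not placed. Capitals mark the CG sites that were measured, and each sequence runs 5′ to 3′ along its gene.
Flt3, minus strand, 5 measured sites: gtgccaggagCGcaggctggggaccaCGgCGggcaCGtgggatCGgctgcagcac
Gata2, plus strand, 10 measured sites: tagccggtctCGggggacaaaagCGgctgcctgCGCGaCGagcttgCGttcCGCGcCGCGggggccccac
Runx1, minus strand, 12 of its 16 measured sites: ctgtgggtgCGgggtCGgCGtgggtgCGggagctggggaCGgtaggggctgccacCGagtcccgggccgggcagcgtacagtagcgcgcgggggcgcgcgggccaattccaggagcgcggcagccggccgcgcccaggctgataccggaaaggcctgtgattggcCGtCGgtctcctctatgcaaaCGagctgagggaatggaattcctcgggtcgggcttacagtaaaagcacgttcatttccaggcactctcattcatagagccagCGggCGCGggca
Gfi1, minus strand, 9 measured sites: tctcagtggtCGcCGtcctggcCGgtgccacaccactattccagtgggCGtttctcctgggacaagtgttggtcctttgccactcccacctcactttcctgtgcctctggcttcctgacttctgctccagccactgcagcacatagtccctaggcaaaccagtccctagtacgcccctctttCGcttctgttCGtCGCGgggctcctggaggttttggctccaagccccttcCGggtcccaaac

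The placed stretches were chr5:148212016-148212315 for Flt3, chr6:88143635-88143934 for Gata2, chr16:92697525-92697824 for Runx1 and chr5:108153314-108153613 for Gfi1, in mm9. For Runx1, which is read from a distal and a proximal promoter, the stretch placed was the second of the 2 listed, and for Gfi1 likewise. Distances below are from the start site set in this way, with downstream meaning in the direction of transcription. The other listed promoter of Runx1, Gfi1 and Gata2 was not placed. Upstream of the placed start therefore need not mean outside the gene. No mm9 gene annotation was used here, so exons, introns and UTRs are not assigned.

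The 6 libraries held 3641141 to 10242334 reads at listed cytosines, and 3503 to 11917 of them fell in the 7 windows. The median member cytosine had 4 reads in day 7 replicate 4, the shallowest library, and 9 to 14 in the others. The day 7 libraries stood apart from the rest, though all 6 are labelled male: the mean depth on X relative to the autosomes was 1.005 and 1.07 in them against 0.650 to 0.688 in the other 4, and reads on Y sequence came to 0.00376 and 0.00358% of autosomal reads against 0.00562 to 0.00711%. Both samples of the group showed this, so it cannot be told apart from day 7 of culture. Every member lies on an autosome, and the levels compared for day 4 against day 0 do not come from these libraries. The p-values of that comparison do involve them, through a spread estimated over all 6 samples. So do the minimums of reads in every sample and the level classes. The level at 31 mitochondrial cytosines was 2.27 and 1.76% at day 7 against 0.490 to 1.17% in the others.

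Most of the 808 cytosines carried little methylation. By the mean over the 6 samples, 507 (62.7%) were low, meaning under 20%, 125 were intermediate and 176 (21.8%) were high, meaning over 80%. Over all autosomal cytosines 40.5% were low and 33.9% high. The genes differed: low sites made up 89.0% of the Meis1 window, 87.0% of Gfi1, 82.1% of Cebpa and 71.4% of Gata2, but 19 of 38 sites at Flt3, 31.3% of Kit and 24.4% of Runx1. The density of listed cytosines differed too, from 4.0 per 10 kb at Flt3 to 36.8 at Gata2.

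**Figure D1:**
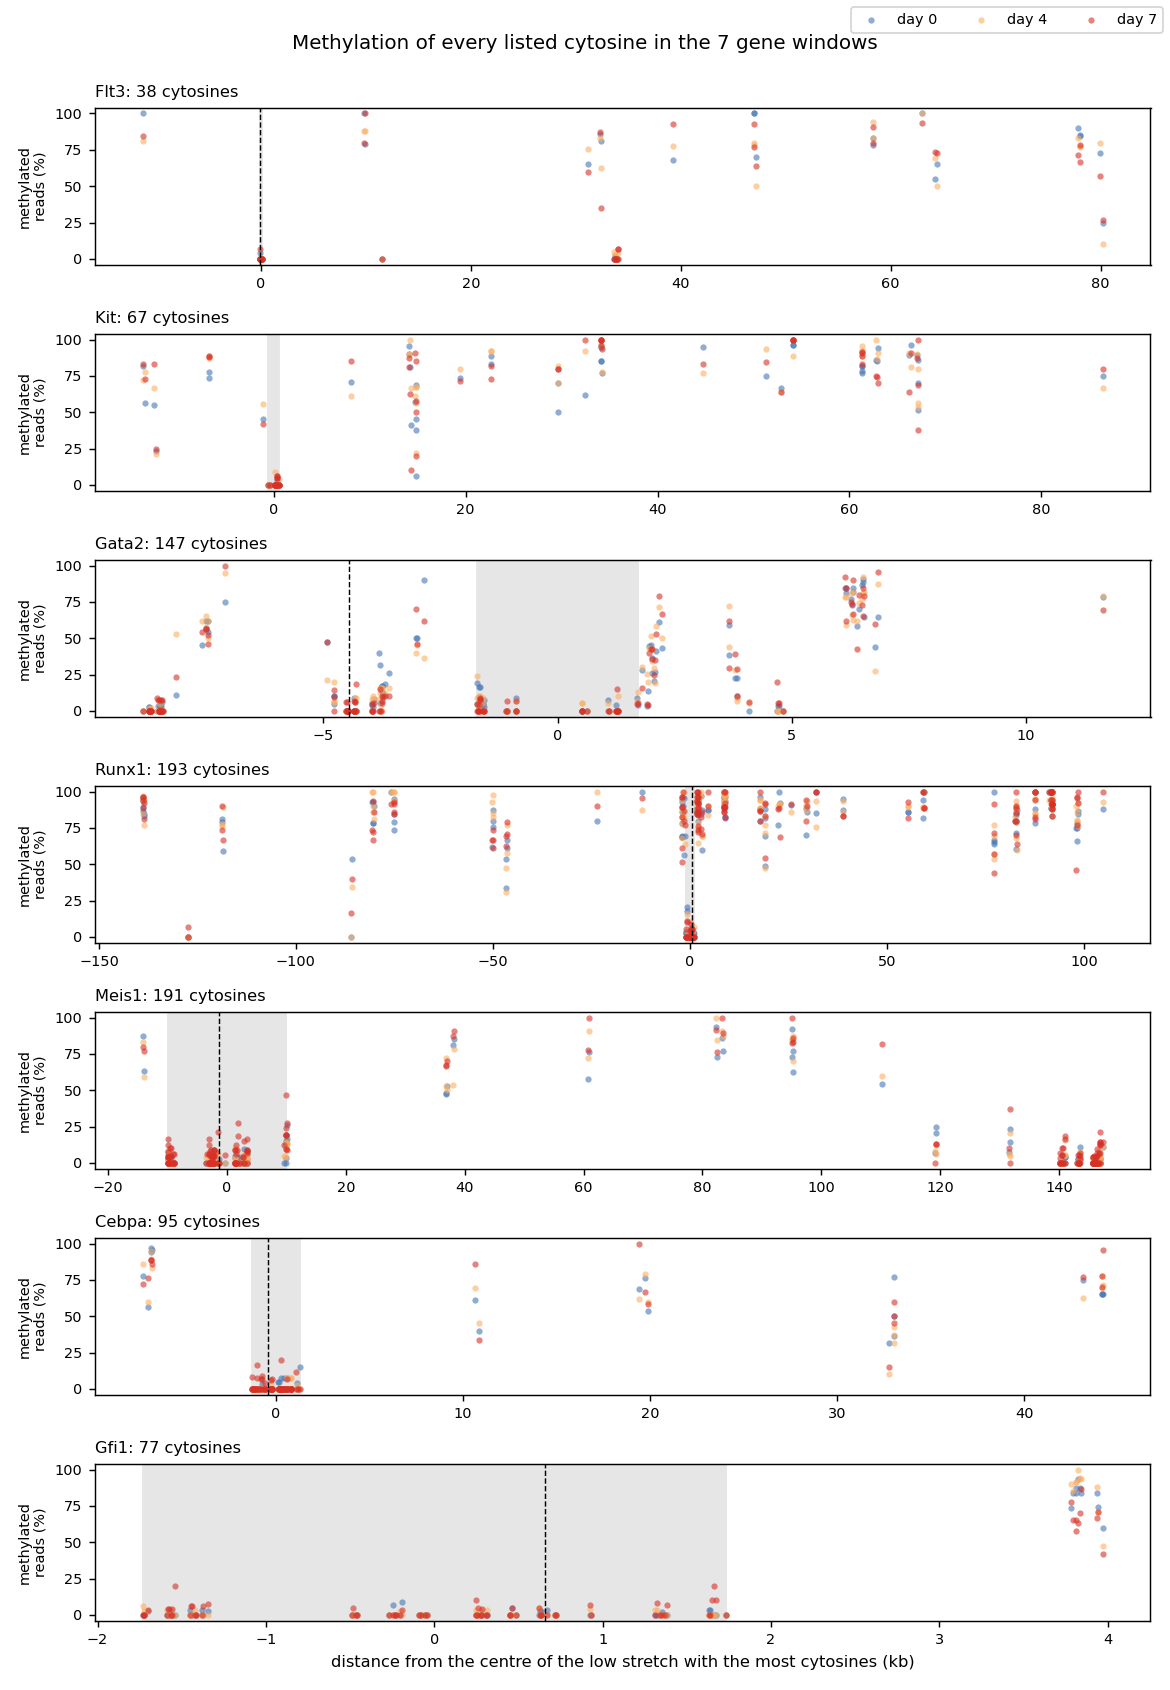
Methylated reads (%) at every listed cytosine of the 7 windows, with the 2 samples of each day pooled, against distance (kb) from the centre of the low stretch with the most cytosines (grey); the dashed line is the placed start site and downstream is to the right, except for Kit, which is drawn in genome order. Each of the 6 dashed lines lies in a low stretch, for Gata2 another than the one in grey, and in Flt3, Kit and Runx1 most sites beyond the low stretches lie above 50%.

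Averaged over the cytosines read in every sample, the window level ranked Runx1 and Kit highest, then Flt3, Gata2, Cebpa, Gfi1 and Meis1. At day 0 the means were 64.7% ± 1.35 for Runx1, 58.6% ± 3.26 for Kit, 41.8% ± 1.29 for Flt3, 19.7% ± 1.50 for Gata2, 12.7% ± 0.993 for Cebpa, 11.3% ± 0.316 for Gfi1 and 8.50% ± 0.564 for Meis1 (SD, n = 2). At day 7 they were 65.5% ± 0.803, 59.3% ± 4.96, 39.7% ± 0.919, 20.6% ± 3.65, 14.5% ± 1.21, 10.4% ± 0.328 and 12.8% ± 0.0676 (SD, n = 2). Close neighbours in this order included Runx1 and Kit on day 4, with 65.9 and 64.9% against 64.0 and 63.3%. On the same day Cebpa and Gfi1 had 12.08 and 11.96% against 11.80 and 11.61%. Meis1 passed Gfi1 on day 7, where its samples read 12.8 and 12.9% against 10.6 and 10.2%. The smallest p that an exact two-sided permutation test of 2 samples against 2 can give is 0.333, so no window difference could pass 0.05.

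Runs of at least 3 listed cytosines at most 100 bp apart were taken as regions. The windows held 96, of which 84 had 10 or more reads in every sample and 83 could be tested; the 1 left out, in Gfi1, had no methylated read in any sample. The test was edgeR's likelihood ratio test over all 56105 regions of the table, and a call needed a Benjamini-Hochberg adjusted p under 0.05 with a difference of at least 20 percentage points between group means. No member region was called in any of the 3 comparisons. The background over all regions tested, some of them off the autosomes, was 0.00178% called for day 4 against day 0. It was 0.451% when day 7 was set against day 4 and 0.497% when it was set against day 0. All 83 members are autosomal, and a fit of the 55146 autosomal regions alone called far fewer regions in the comparisons with day 7. With day 4 as the earlier day it called 10, beside 253 of all 56105. With day 0 as the earlier day it called 23, beside 279. A count of 0 among 83 lies near either background.

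At an unadjusted p under 0.05 the edgeR test marked 3 of the 83 member regions (3.61%) for day 4 against day 0, 1 higher and 2 lower, where the background was 6.6%. For day 7 against day 4 it marked 16 (19.3%), 12 higher and 4 lower at day 7, with a background of 11.4%. For day 7 against day 0 it marked 14 (16.9%), 11 higher and 3 lower, with a background of 12.9%. Both comparisons with day 7 share the day 7 samples, so they are not independent. A different mix of cells and different methylation within cells cannot be told apart in these bulk libraries. The median difference over member regions was 0.00 points for day 4 minus day 0, 1.18 for day 7 minus day 4 and 1.48 for day 7 minus day 0, beside 0.44, 0.958 and 1.53 over all regions tested. Under edgeR's quasi-likelihood test the unadjusted counts were 0, 10 and 8. The share of all regions at that threshold was not counted under this test or with a sample left out, so such counts have no background here. Single libraries weighed on these figures: without day 7 replicate 1 the median was 0.00 for day 7 minus day 4 and 0.704 for day 7 minus day 0, and without day 4 replicate 2 and day 7 replicate 4 the first was 0.730 and 0.716. The count of 14 was 6 without day 0 replicate 3 and 9 without day 7 replicate 1, and the count of 3 was 6 without day 4 replicate 1.

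**Figure D2:**
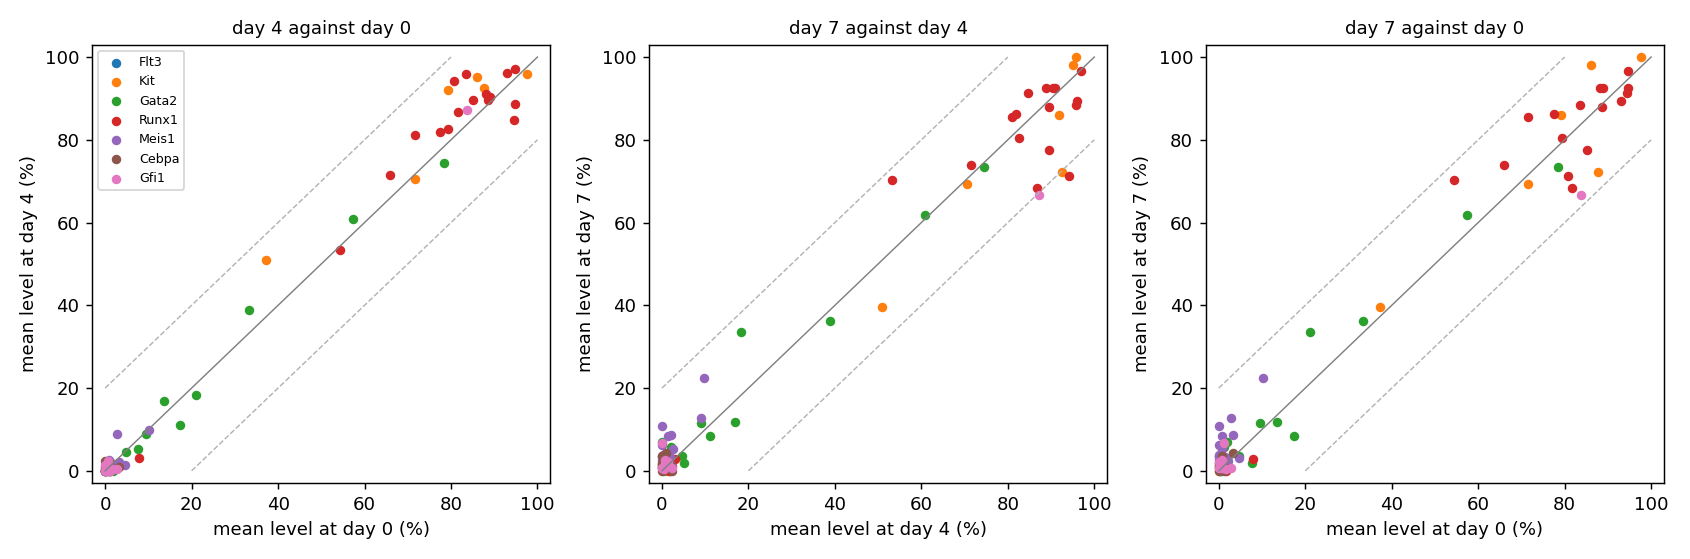
Mean level (%) of the 83 tested member regions in 1 group against another, coloured by gene, with the line of equality and dashed lines at a difference of 20 points. The 3 regions beyond the lower dashed line in the middle panel (day 7 against day 4) belong to Kit, Runx1 and Gfi1, and none of the 3 passed the adjusted test.

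At Flt3, the receptor whose ligand was supplied, 38 cytosines were listed, 19 of them low. Most of the low sites fell in 1 stretch of 9 cytosines over the start site, chr5:148211924-148212084, and another of 8 cytosines, chr5:148177941-148178335, which began 33.7 kb downstream. The start site region had methylation levels of 0.926 and 0% (day 0), 0 and 0% (day 4) and 0 and 2.70% (day 7), with the replicates of a day, here and below, in the order of their numbers. These were 1 methylated read of 108 in day 0 replicate 2 and 1 of 37 in day 7 replicate 4. Here and below, reads are summed over the cytosines of a region, so 1 read can count at several. The 0 of 90 in day 7 replicate 1 allows up to 3.33% if each count is a separate read. Where cytosines share reads, this limit and those below are too low. The groups overlapped and the difference of day 7 from day 0 was 0.888 points (edgeR adjusted p = 0.906); without day 7 replicate 4 it was -0.463. The second Flt3 region, the 6 cytosines at chr5:148178095-148178335, had 0 and 0.862% (day 0), 0.794 and 2.94% (day 4) and 0 and 0% (day 7), the last from 57 and 20 reads. Both regions thus had few methylated reads on each day. The 0 of 57 and 0 of 20 in the second region at day 7 allow up to 5.26 and 15.0%.

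Away from these stretches most Flt3 sites were methylated. Its 9 intermediate sites averaged 75.3 and 68.1% (day 0), 71.3 and 70.9% (day 4) and 64.4 and 67.1% (day 7). Both day 7 samples were below the other 4, by 1.08 points at the nearest, and the day 0 samples differed by more than that from each other. Its 10 high sites averaged 91.2% ± 1.17 before culture, 84.8% ± 9.18 on day 4 and 87.2% ± 1.14 on day 7 (SD, n = 2), with day 4 replicate 2 the lowest at 78.3%. None of these intermediate or high sites fell in a region, so they were not tested.

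At Kit, the receptor for stem cell factor, a low stretch of 19 cytosines lay at chr5:75970683-75971795, between neighbours at 49.3% and 76.8%. Its mean was 0.165% ± 0.233 before culture, 0.595% ± 0.222 on day 4 and 0.639% ± 0.903 on day 7 (SD, n = 2). The largest low region in it, the 9 cytosines at chr5:75971523-75971627, had 4 methylated reads of 148 in day 7 replicate 1 and 0 of 20 in replicate 4, which alone allows up to 15.0%.

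Among Kit regions with at least 20 reads in every sample the largest difference was in 5 cytosines at chr5:76005347-76005404, which read 96.4 and 75.7% (day 0), 96.0 and 94.3% (day 4) and 98.6 and 97.7% (day 7). Day 0 replicate 3 was the only low sample. The region's difference of day 7 from day 0 was 12.1 points (edgeR unadjusted p = 0.00793, adjusted p = 0.208), and without day 0 replicate 3 it was 1.71 points. A second region, 3 cytosines at chr5:76034053-76034193, differed the other way: 94.3 and 81.1% (day 0), 91.3 and 93.9% (day 4) and 75.0 and 69.2% (day 7), the last from 13 reads. Both day 7 samples lay below the other 4, and day 7 minus day 4 was -20.5 points (edgeR unadjusted p = 0.0233, adjusted p = 0.352).

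Gata2, a zinc finger factor of stem cells and mast cells, had 105 low sites among 147. They formed several low stretches, among them 29 cytosines over the start site at chr6:88143556-88144534, 27 upstream at chr6:88139486-88139903 and 34 downstream at chr6:88146618-88150050. The placed promoter itself, 10 cytosines from 71 to 23 bases before the start, had no methylated read in any day 0 or day 4 sample and 2 of 120 (1.67%) in day 7 replicate 1. In the upstream stretch the 16 cytosines at chr6:88139791-88139903 read 1.16 and 1.19% (day 0), 0.439 and 0% (day 4) and 1.85 and 4.17% (day 7), with an edgeR adjusted p of 0.382 for day 7 against day 4.

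The Gata2 region with the largest difference from day 0, among those with at least 20 reads in every sample, was lower in the cultured samples. In the 10 cytosines at chr6:88144528-88144725, which began 643 bp downstream of the start site, the levels were 17.6 and 16.9% (day 0), 9.70 and 12.5% (day 4) and 5.11 and 11.5% (day 7). Both day 0 samples were above all 4 cultured ones, while days 4 and 7 overlapped. All 10 cytosines had a lower level at day 7 than at day 0 in pooled reads, and 9 of 10 were lower at day 4 than at day 0; neighbouring cytosines share reads and are not independent. The difference of day 7 from day 0 was -8.97 points (edgeR unadjusted p = 0.0429, adjusted p = 0.373) and day 4 minus day 0 was -6.19 points (adjusted p = 0.841). Without day 7 replicate 1 the first was -5.75 points (adjusted p = 0.802). Further on, the 4 cytosines at chr6:88153023-88153149 read 3.67 and 0% (day 0), 0 and 0% (day 4) and 4.44 and 9.52% (day 7), with only 2 methylated reads in each day 7 sample (adjusted p = 0.161 against day 4).

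Runx1, the DNA-binding subunit of core binding factor, was the most methylated window, with 114 of 193 sites high. Its 44-cytosine low stretch, chr16:92697071-92698945, spanned the placed start site, and the nearest listed sites outside had 84.0% at a distance of 746 bp and 64.8% at 353 bp. The region over the start, 14 cytosines at chr16:92697458-92697658, read 0 and 1.15% (day 0), 0 and 0.787% (day 4) and 0.498 and 6.90% (day 7); the highest value came from 2 methylated reads of 29. There the day 7 mean exceeded that of day 0 by 3.12 points (edgeR adjusted p = 0.678), and without day 7 replicate 4 the difference was -0.0772. Of the 16 cytosines in the whole placed promoter, the level was 1.08% in day 7 replicate 1 and 11.8% in replicate 4, which had 34 reads.

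Outside the Runx1 stretch, 16 tested regions were intermediate or high. The 4 cytosines at chr16:92744448-92744603, 46.9 kb upstream, read 52.2 and 56.5% (day 0), 55.4 and 51.3% (day 4) and 71.0 and 69.6% (day 7). Both day 7 samples were above the other 4, by 15.9 points over day 0 in the means (edgeR adjusted p = 0.561). The 3 cytosines at chr16:92747970-92748024, 50.4 kb upstream and thus close by, read 81.2 and 82.2%, 92.2 and 81.4%, and 66.7 and 70.0% in the same order, so there both day 7 samples were the lowest (day 7 minus day 4 was -18.5 points, adjusted p = 0.369). The neighbouring regions differed in opposite directions, and neither passed.

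In another pair of Runx1 regions both day 4 samples were the highest. The 11 cytosines at chr16:92689182-92689354, 8.22 kb downstream, read 91.7 and 94.1% (day 0), 97.7 and 94.4% (day 4) and 89.5 and 89.1% (day 7). Their day 7 mean minus that of day 4 was -6.80 points (edgeR adjusted p = 0.331). The 4 at chr16:92773036-92773131 read 82.1 and 85.0% (day 0), 100.0 and 91.7% (day 4) and 90.0 and 87.0% (day 7). The second gave the smallest adjusted p of any member for day 4 against day 0, 0.691.

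Meis1, a homeodomain factor that pairs with Hox proteins in stem cells, had the largest difference of day 7 from day 0 in window level among the 7, 4.33 points, with each cytosine given equal weight. With all reads of a window pooled it was 3.83 points, and Runx1 at 8.90, Flt3 at 7.37 and Kit at 6.06 were larger. With at least 5 reads a cytosine in every sample it was 3.77 points, and Flt3 at -6.53 and Kit at 6.01 were larger in size. The window level was 8.90 and 8.10% (day 0), 9.32 and 8.76% (day 4) and 12.8 and 12.9% (day 7). Both day 7 samples were above the other 4 by 3.46 points at the nearest, more than the spread within any day. Most of its cytosines fell in 2 low stretches: 102 cytosines around the start site, chr11:18907766-18927613, and 63 at chr11:18770378-18785964, the nearest of them 133 kb downstream, with no listed site between it and that end of the window. Listed sites are spaced unevenly through both, and the bases between them were not read.

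All 19 tested Meis1 regions were low. Their mean level was 1.89 and 1.25% (day 0), 2.43 and 1.19% (day 4) and 5.21 and 6.09% (day 7). In 7 of the 19 (36.8%) both day 7 samples lay above all 4 others, beside 22.8% of low regions over all autosomes and 15 of the 56 low member regions (26.8%). Low autosomal regions as a whole averaged 2.31% at day 0, 2.35% at day 4 and 3.64% at day 7, so the day 7 level was the highest there too. With the autosomal mean of the same sample subtracted, which was done after the data were seen, the Meis1 samples stood at -0.339 and -1.13 points (day 0), 0.0055 and -1.09 points (day 4) and 1.50 and 2.52 points (day 7), with an exact two-sided permutation p of 0.333, the smallest possible, for day 7 against either other day. The mitochondrial level was also highest in the day 7 libraries, as given above, and its part in these values was not tested.

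**Figure D3:**
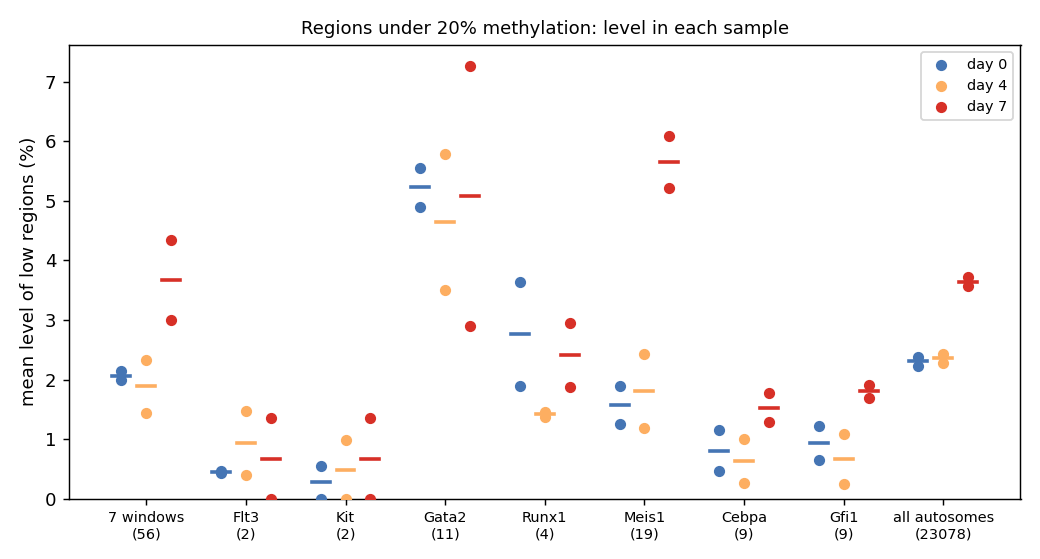
Mean level (%) of tested regions under 20% methylation in each sample (points) with group means (bars), for the 7 windows together, each window and all autosomes, with the number of regions in brackets. The 2 day 7 points of Meis1 lie at 5.21 and 6.09%, above the autosomal 3.72 and 3.56%, while those of Flt3, Kit, Cebpa and Gfi1 lie at 1.91% or lower. Those of Runx1 lie at 1.87 and 2.94%. Those of Gata2 lie at 2.89 and 7.26%, beside 4.90 and 5.56% for Gata2 at day 0.

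A single Meis1 region passed the adjusted p threshold, though with a difference far under 20 points. Its 16 cytosines, chr11:18920500-18920788, begin 1.53 kb upstream of the placed start site. They had 0 methylated reads of 218 and 172 at day 0, which allow up to 1.38 and 1.74%, then 1 of 191 and 0 of 203 at day 4, and 5 of 117 and 4 of 122 at day 7. The levels were thus 0 and 0% (day 0), 0.524 and 0% (day 4) and 4.27 and 3.28% (day 7), with both day 7 samples above the rest and methylated reads at 5 of the 16 cytosines. Day 7 minus day 0 was 3.78 points (edgeR adjusted p = 0.0237) and day 7 minus day 4 was 3.51 points (adjusted p = 0.137). The adjusted p for day 7 against day 0 was 0.0882 with autosomes fitted alone, 0.108 by quasi-likelihood and 0.115 by limma. Its lowest value over all alternatives was 0.00972. It rose without either day 0 sample and without day 7 replicate 1. With a sample left out the difference of day 7 from day 0 ranged from 3.28 to 4.27 points.

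In the downstream stretch of Meis1 the 10 cytosines at chr11:18770762-18770916 read 0 and 1.69% (day 0), 1.79 and 1.22% (day 4) and 13.1 and 3.92% (day 7). In day 7 replicate 1 each cytosine from 18770762 to 18770839 had 2 or 3 methylated of only 8 reads, and the rest had 0. Neighbouring cytosines share reads, so the 13.1% may rest on very few molecules. The day 7 samples were both highest but differed from each other by more than the other 4 did. Day 7 minus day 0 was 7.68 points (edgeR adjusted p = 0.0679), 3.08 without day 7 replicate 1 (adjusted p = 0.632) and 12.3 without day 7 replicate 4 (adjusted p = 0.0242). The region of Meis1 with the largest difference was at the far end of the other stretch, 6 cytosines at chr11:18907761-18907819, with 13.5 and 6.76% (day 0), 17.8 and 1.85% (day 4) and 21.2 and 23.8% (day 7). There the day 7 mean was 12.4 points above that of day 0 (adjusted p = 0.438), and the 2 day 4 samples lay 1 above and 1 below both day 0 samples.

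Other Meis1 regions had smaller differences or fewer reads. The 4 cytosines at chr11:18920348-18920391, next to the region that passed, had no methylated read in any of the first 4 samples and 1.59 and 10.7% at day 7, and the 6 at chr11:18914268-18914322 had 5.43 and 1.12%, 4.20 and 0%, and 6.38 and 11.1%. The 8 cytosines at chr11:18771463-18771505 differed in having no methylated read at day 4 alone, and the 11 at chr11:18771768-18772045 stayed between 0 and 4.35% with overlapping groups. The 12 intermediate sites of Meis1 averaged 54.4 and 47.2% (day 0), 52.6 and 48.2% (day 4) and 65.1 and 70.1% (day 7), beside 61.1%, 64.2% and 64.9% for the days' means over intermediate autosomal sites. Its 9 high sites averaged 79.2% at day 0, 89.7% at day 4 and 92.8% at day 7, and those of all autosomes 86.2%, 88.9% and 90.3%.

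**Figure D4:**
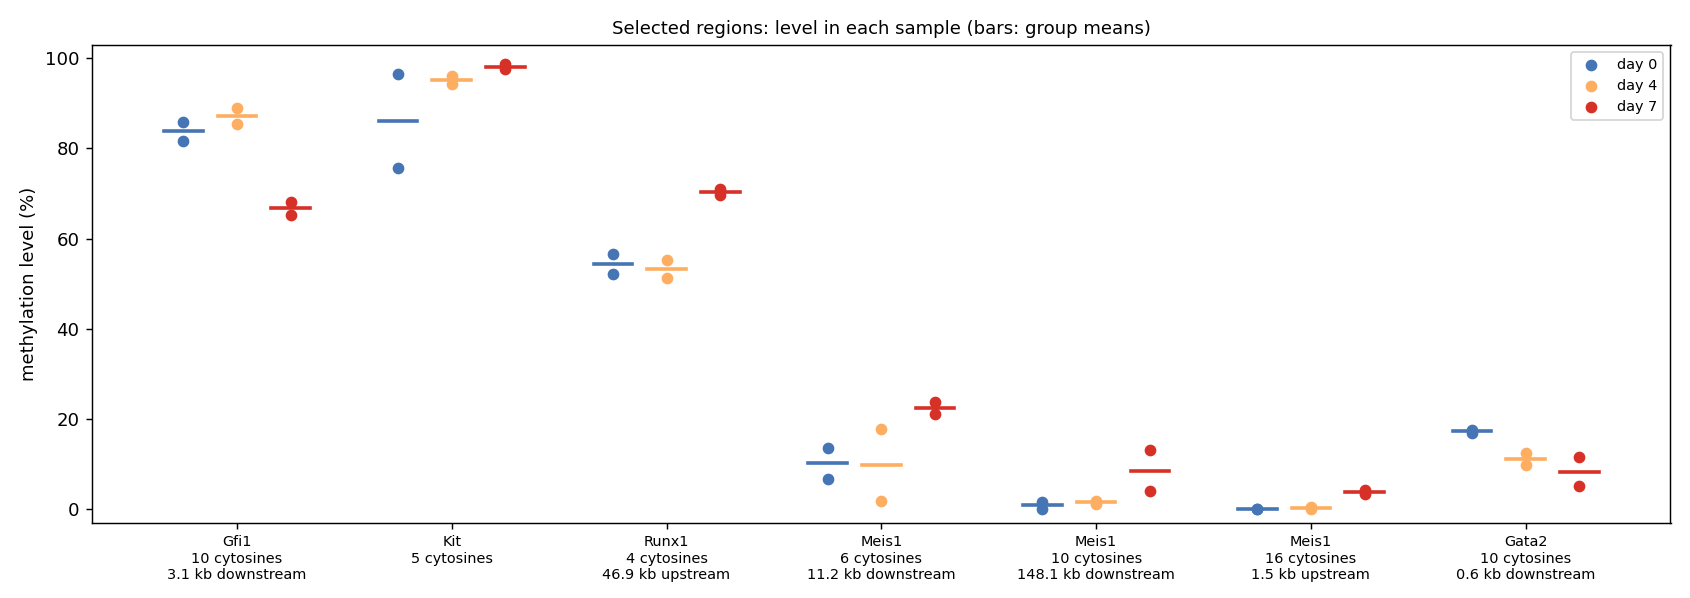
Methylation level (%) of 7 regions in each sample (points) with group means (bars), labelled by gene, number of cytosines and distance from the placed start site; Kit has no placed start. Both day 7 samples lie below all others at Gfi1 and above all others at Runx1, Kit and the 3 Meis1 regions, and at Gata2 both day 0 samples lie above the rest.

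Cebpa, a leucine zipper factor of granulocyte and monocyte progenitors, had 77 cytosines in 1 low stretch, chr7:35903419-35905979, reaching from 893 bp before the start site to 1667 bp after it. Its mean was 0.630 and 0.639% (day 0), 0.240 and 0.711% (day 4) and 1.37 and 1.67% (day 7). The first 16 cytosines, chr7:35903419-35903746, had no methylated read among 424, 302, 223 and 250 reads at days 0 and 4, which allow at most 0.708, 0.993, 1.35 and 1.20%, and 3 of 229 and 1 of 42 at day 7. These are 1.31 and 2.38%, a difference of 1.85 points from day 0 (edgeR adjusted p = 0.117). The 6 cytosines next to them, chr7:35903847-35903972, had 1.43 and 0%, 0 and 0%, and 4.26 and 2.94% (edgeR adjusted p = 0.513 for day 7 against day 0). The 11 at chr7:35904417-35904524 had 1 methylated read in each day 7 sample and 1 of 248 in day 4 replicate 1 (edgeR adjusted p = 0.370 for day 7 against day 0). The 7 at chr7:35905511-35905536 had methylated reads in day 4 replicate 2 alone, 2 of 42. In 3 of the 9 low Cebpa regions both day 7 samples were above the other 4, with every level under 5%, beside 22.8% of low autosomal regions. The mean of the 9 was 0.723 points higher at day 7 than at day 0, beside 1.33 points for low autosomal regions, and with the autosomal mean of the same sample subtracted the day 7 samples overlapped the rest.

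Gfi1, a zinc finger repressor needed for neutrophils, had a long stretch with little methylation and, beyond it, the region with the largest difference between day 7 and day 0 among the 83 tested. The stretch held 67 cytosines over 3460 bp, chr5:108152288-108155747, with the placed start site inside. Its mean was 0.811 and 0.637% (day 0), 0.991 and 0.352% (day 4) and 2.25 and 1.71% (day 7), so both day 7 samples were above the other 4. The 9 low Gfi1 regions tested had a mean 0.873 points higher at day 7 than at day 0, beside 1.33 points for low autosomal regions, and with the autosomal mean subtracted the days overlapped. Within the stretch the 15 cytosines at chr5:108155363-108155608 read 0.855 and 0.535%, 0.741 and 0.541%, and 3.67 and 1.37%, and the 9 at chr5:108153706-108153772 read 0 and 0%, 1.04 and 1.72%, and 1.94 and 2.50% (edgeR adjusted p = 0.391 and 0.267 for day 7 against day 0).

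The methylated region of Gfi1 lay 3.13 kb downstream of the start site, 2052 bp beyond the edge of the stretch. Its 10 cytosines, chr5:108150049-108150236, read 81.7 and 85.9% (day 0), 85.4 and 89.0% (day 4) and 68.1 and 65.3% (day 7), from 64 to 218 reads a sample. Both day 7 samples lay below the other 4 by 13.5 points at the nearest, and days 0 and 4 overlapped. In pooled reads 9 of the 10 cytosines were lower at day 7 than at day 4, and 8 were lower than at day 0. Day 7 minus day 4 was -20.5 points (edgeR unadjusted p = 0.00439, adjusted p = 0.198) and day 7 minus day 0 was -17.1 points (adjusted p = 0.337), so the region was not called.

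Under 2 other settings this Gfi1 region, or a part of it, was called for day 7 against day 4. Fisher's exact test on reads pooled within a day, which leaves out the spread between samples, gave an adjusted p of 2.124e-05. With a largest gap of 50 bp the 7 cytosines at chr5:108150177-108150236 formed a region of their own, whose level fell by 26.0 points (edgeR adjusted p = 0.0455); against day 0 the difference was -21.9 points (adjusted p = 0.263). Over all regions, Fisher's exact test called 583 of 56105 for day 7 against day 4, and the 50 bp setting called 249 of 55808. Over the same comparison the high sites of all autosomes averaged 88.9% at day 4 and 90.3% at day 7, and the intermediate sites 64.2 and 64.9%. The Gfi1 region, at a mean of 79.2% over the 6 samples, was itself intermediate. These are averages over single sites, and the classes were set with the day 7 values included.

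Other genes of the stem and progenitor network were looked for through a list of 36, among them Spi1, Tal1, Lmo2, Ikzf1, Hhex, Hlf and Bmi1. Of these 27 had a RefSeq promoter sequence and 5 could be placed on mm9: Ikzf1, a lymphoid zinc finger factor, Hhex, a homeobox factor, Hlf, a leucine zipper factor of stem cells, Zfpm1, the partner of Gata factors also called Fog1, and Bmi1, a Polycomb subunit. They overlapped 6 tested regions, all with group means of 2.12% or lower, and none was called. At an unadjusted p under 0.05 the edgeR test marked 1 region for day 4 against day 0 (Hlf), 1 for day 7 against day 4 (Ikzf1) and 2 for day 7 against day 0 (Hlf and Ikzf1), all higher at the later day, beside 6.6, 11.4 and 12.9% of all regions tested. The medians of the 6 differences were 0.32, 0.76 and 1.52 points. They stand beside 0.44, 0.958 and 1.53 over all regions, and 0.45, 0.937 and 1.50 over autosomal regions.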

How the data were processed

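The labels list 6 samples in 3 groups of 2 and name no animal or culture of origin. The p-values therefore rest on a spread between samples that may be technical. Per the labels' protocols, DNA aliquots were cut with TaqI or MspI, pooled, bisulfite converted and amplified. Per the submitters' processing notes, Bismark and Bowtie2 were used with mm9, with versions and duplicate handling not given in the sources used here. For 652716 cytosines, the deposited table gives each sample's methylated fraction, and deposited counts of methylated and unmethylated reads with no scaling; the fraction equalled methylated reads over all reads. Every listed cytosine had at least 10 reads summed over each group.

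Levels here are percentages computed from the counts. Regions (at least 3 cytosines, neighbours at most 100 bp apart, at least 10 reads in every sample) were fitted with edgeR 4.0.16 in R 4.3.3: a negative binomial likelihood ratio test on both counts with a term for each sample, over all 6 samples and 56105 regions, with Benjamini-Hochberg adjustment. The fit was tested on simulated data. Limits for 0 methylated reads are 3 reads of the total and cover counting error only, since PCR reads are not independent molecules. The total is summed over the cytosines of a region, so a read that crosses several counts at each. The limits are too low where this happens. Alternatives were quasi-likelihood, limma 3.58.1 (pseudocount 0.5), Fisher's exact test, other read, gap and size minimums, a fit of autosomes only, a fit of the compared groups only, and leaving out each sample.

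Named regions were, per window, the low region with the most cytosines, those with the largest differences from day 0 (at least 20 reads in every sample), every called region, and every region with both samples of a day beyond the other 4 at an unadjusted p under 0.05. Intermediate and high site means, and the 50 bp Gfi1 region, were picked out after their values were seen. The members, windows and lists were chosen with earlier results of these data known.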

Additional observations from a re-analysis of the deposited data

How the results depend on the processing

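Depth limits these values: day 7 replicate 4 had a median of 4 reads per member cytosine, and 2.35% of member cytosines were unread there. No paired analysis was possible because the groups compared share fewer than 2 replicate numbers. For day 4 against day 0, the 3 member regions at an unadjusted p under 0.05 became 0 by quasi-likelihood, 5 by Fisher's exact test and 1 with at least 5 cytosines a region, and ranged from 2 to 6 with each sample left out (6 without day 4 replicate 1); the median difference then ranged from 0.00 to 0.37 points. For day 7 against day 4, the 16 became 10 by quasi-likelihood and 13 to 17 with a sample left out; the count called, 0, became 1 by Fisher's exact test and 1 with a gap of 50 bp, both at the Gfi1 region 3.13 kb downstream of the start site. For day 7 against day 0, the 14 became 8 by quasi-likelihood and 6 to 14 with a sample left out (6 without day 0 replicate 3, 9 without day 7 replicate 1), and the count called, 0, became 1 with no minimum difference, at Meis1. The cause was not tested. The 50 bp call was of a part of the Gfi1 region. With no minimum difference, 470 of all 56105 regions were called for day 7 against day 0. A background share for the unadjusted counts was taken only under the likelihood ratio test with the main settings. The called counts were 0 with each sample left out, in all 3 comparisons. The median difference of day 7 from day 4, 1.18 points, ranged from 0.00 to 1.35, and that from day 0, 1.48 points, from 0.70 to 1.62 with a sample left out.

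Window levels moved by more than their replicate spread in 20 alternatives and by less in 106. All 20 came from pooling reads or from a minimum of 5 reads a cytosine. Leaving out 1 of a group's 2 samples cannot move its mean by as much as that spread. Those alternatives were therefore among the 106 whatever the values, and they do not measure stability. Day 7 minus day 0, -2.10 points at Flt3 and -0.924 at Gfi1, was 7.37 and 1.40 with reads pooled and -6.53 and -2.02 with that minimum. Of the alternative values for named regions, 2 became calls, at the Gfi1 and Meis1 regions above, and 1228 kept their side of the call rule. Where a difference was under 20 points, a setting that changed only the p-value could not make a call. The 1228 therefore do not measure stability.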
